A study of Homo sapiens with 27 samples.

Results

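The genes described here are 49 of the 20268 protein-coding genes in the count table, chosen by name as a list of homologous recombination, Fanconi anaemia, checkpoint and end-joining genes. By role they comprise 12 genes of strand exchange, 6 damage kinases and checkpoint genes, 11 genes of the Fanconi anaemia pathway, 2 RecQ helicases, 6 genes of end resection, 4 genes of chromatin signalling beside a break, 4 genes of junction resolution and 4 genes of end joining. RNA was sequenced from 3 prostate cancer cell lines, LNCaP, LNCaP95 and 22Rv1, that carried, from a lentivirus, either a non-silencing hairpin named CTRL sh or a hairpin directed at CPSF1 mRNA, CPSF1 sh1 or CPSF1 sh2, giving 3 libraries for each of the 9 combinations of line and hairpin. CPSF1 is the largest subunit of the cleavage and polyadenylation specificity factor, the complex that cuts a new transcript so that its poly(A) tail can be added. All infected cells, controls included, went through puromycin selection at 2 μg/mL (LNCaP and 22Rv1) or 1 μg/mL (LNCaP95), and 500000 cells per well were then grown for 72 h in RPMI medium with 10% FBS, without phenol red for LNCaP95. No cloning step is described, so the cells are taken as selected populations, and the sources used here do not say whether the libraries of a hairpin came from separate infections. LNCaP is the hormone-sensitive line whereas LNCaP95 and 22Rv1 grow without androgen.

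A break through both strands of DNA is repaired along 2 main routes. In homologous recombination the ends are cut back to single strands and prepared for strand exchange by BRCA1, PALB2 and BRCA2, so that an intact sister copy can serve as template, and the route is used mainly in cells that have copied their DNA. In end joining, DNA-dependent protein kinase and DNA ligase IV reseal the ends without a template at any time in the cell cycle. The Fanconi anaemia proteins unhook crosslinks between the strands and hand the break over to recombination, and the kinases ATM and ATR signal the damage to the cell cycle. Loss of these genes in prostate cancer is best known for BRCA2 and ATM.

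Cleavage takes place downstream of a poly(A) signal, for which AATAAA is the most common hexamer and ATTAAA the next. Among the 40 bases before the annotated end of the canonical transcript, AATAAA stood in 34 of the 49 genes (69.4%), ATTAAA without AATAAA in 6 (12.2%) and neither in 9 (18.4%), against 65.7%, 15.3% and 19% of the 11582 tested genes with such an end. The last 30 bases are shown, 5′ to 3′ on the strand of the gene, for genes whose values are given library by library further on, with the hexamer in capitals. The sequences are from GRCh37, at chr14:68944781-68944810 (plus strand) for RAD51B, chr13:108859790-108859819 (minus) for LIG4, chr17:41196312-41196341 (minus) for BRCA1, chr13:32974376-32974405 (plus) for BRCA2, chr16:3631182-3631211 (minus) for SLX4 and chr1:242053212-242053241 (plus) for EXO1.
RAD51B: acatttccgAATAAAgtattgtctaccaga
LIG4: ttaAATAAAatatttaatgcactattaaaa
BRCA1: tgcaAATAAActtggtagcaaacacttcca
BRCA2: aagccaagAATAAAtcttttaaaaaattga
SLX4: gtgcAATAAAccaaaaaggctttattaaaa
EXO1: gtagaaagatagtaaatggagaaactacaa
The first 5 end on AATAAA, and EXO1 has neither hexamer in this window. The median log2 fold change with CPSF1 sh of the genes with AATAAA and of those with neither was -0.07 and -0.07 for LNCaP, 0.19 and 0.29 for LNCaP95, and -0.07 and -0.00 for 22Rv1, and the 5 or 6 tested genes with ATTAAA had medians of -0.07, 0.11 and -0.16.

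CPSF1 mRNA was lower in every CPSF1 sh library than in every CTRL sh library of its line. In LNCaP it stood at 149.7, 150.3 and 152 CPM with CTRL sh and 86.2 to 108 CPM with CPSF1 sh (median 96.3), where CPM is the count relative to the TMM-scaled library size. The log2 fold change of CPSF1, 6 CPSF1 sh against 3 CTRL sh libraries, came to -0.65 (SE 0.056, adjusted p = 1.68e-07) for LNCaP, -0.89 (SE 0.079, adjusted p = 1.31e-06) for LNCaP95 and -0.50 (SE 0.062, adjusted p = 9.66e-05) for 22Rv1. Each library held between 8515624 and 15904518 counts on genes. One library stood apart, CPSF1 sh1 replicate 3 of 22Rv1, whose counts gave a chi-square per degree of freedom of at least 4.95 against each of the other replicates, which gave 2.05 against each other. All other pairs of replicates lay between 1.38 and 5.61, the highest being CTRL sh replicates 1 and 2 of LNCaP95. Without it, 2214 genes were higher and 2372 lower in 22Rv1 in place of 1487 and 1673.

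The luminal prostate markers were all expressed, and their sum was lower with knockdown in LNCaP and LNCaP95. The 9 markers summed to 5105 to 5233 CPM with CTRL sh and 3846 to 4145 with CPSF1 sh in LNCaP, and to 6396 to 6646 and 4433 to 4703 in LNCaP95, and in 22Rv1 the ranges were 3291 to 3311 and 3146 to 3445. In both former lines 6 of the 9 were lower, among them KLK3, the prostate-specific antigen, in LNCaP (-1.62, SE 0.059, adjusted p = 3.32e-11) and the protease TMPRSS2 in LNCaP95 (-1.57, SE 0.14, adjusted p = 1.76e-06). The 4 basal markers summed to 1.34 to 2.11 CPM with CTRL sh and 3.96 to 6.38 with CPSF1 sh in LNCaP, to 3.14 to 4.70 and 3.28 to 6.13 in LNCaP95, and to 1.98 to 2.57 and 0.974 to 2.13 in 22Rv1. With CTRL sh, KRT14 averaged 1.72 and 2.41 CPM in LNCaP and LNCaP95 and NGFR 2.12 CPM in 22Rv1, while KRT5 and TP63 averaged at most 0.063 CPM in any line. The 5 leukocyte markers summed to 2.98 to 3.60 CPM with CTRL sh and 10.03 to 18.3 with CPSF1 sh in LNCaP, to 6.47 to 9.55 and 16.7 to 36.1 in LNCaP95, and to 1.80 to 2.39 and 3.04 to 7.95 in 22Rv1. Of these CD68, a lysosomal protein of macrophages and other cells, rose in LNCaP (2.09, SE 0.21, adjusted p = 6.98e-07) and LNCaP95 (1.64, SE 0.26, adjusted p = 1.22e-04), while PTPRC averaged at most 0.031 CPM with CTRL sh. The part of these marker changes in the repair gene results was not tested. SYP and CHGB, which mark neuroendocrine cells, were at 75.1 and 35.1 CPM in 22Rv1 cells with CTRL sh.

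With CPSF1 knockdown, break repair genes moved in both directions in LNCaP, mostly upwards in LNCaP95, and in fewer cases in 22Rv1. A gene is called higher or lower here when its adjusted p is below 0.05 in edgeR's quasi-likelihood test over all genes of the line. Of the 48 genes tested in LNCaP, 12 were higher and 15 lower, against 31.1% and 31.0% of all 11096 genes tested. Of the 48 tested in LNCaP95, 24 were higher and 6 lower, against 33.2% and 33.7% of 11143 genes. The 49 tested in 22Rv1 gave 5 that were higher and 10 that were lower, against 12.7% and 14.3% of 11728 genes. In LNCaP95 the share of repair genes that were higher was thus above that of all genes, and the share that were lower, 12.5%, below it. The repair genes had a median log2 fold change of 0.20 in this line, beside -0.07 for LNCaP and -0.08 for 22Rv1, and all genes tested had medians of 0.0013, -0.0004 and -0.0024 in this order. NHEJ1, an end-joining factor, did not pass the filter of 2 CPM in every library in LNCaP and LNCaP95, and accounts for the gene not tested there.

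**Figure D1:**
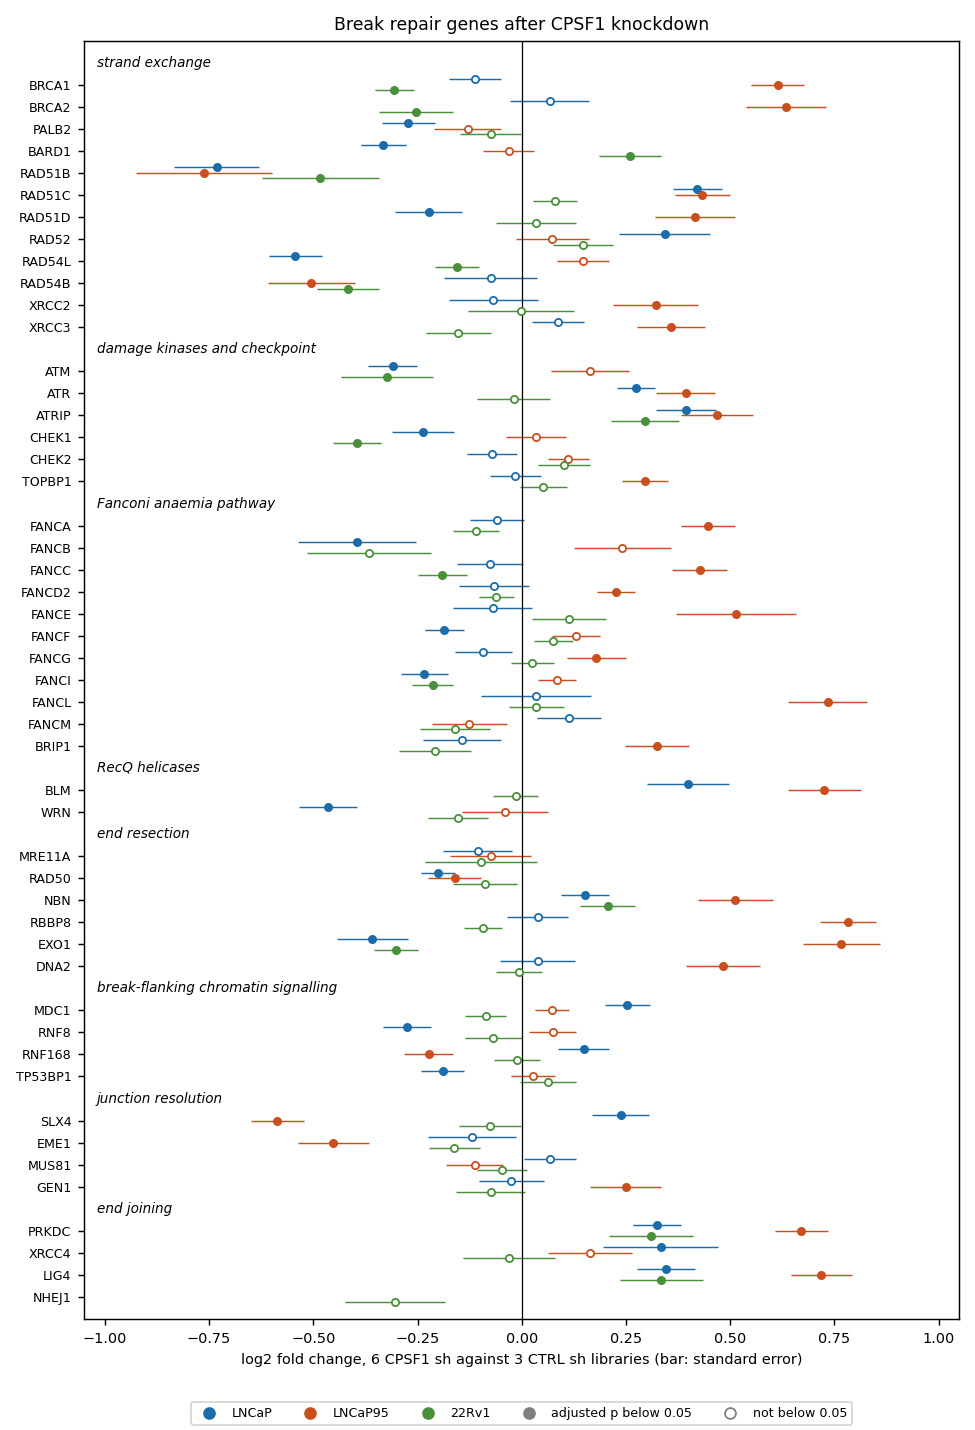
Log2 fold change of each break repair gene, 6 CPSF1 sh against 3 CTRL sh libraries, with its standard error, in LNCaP (blue), LNCaP95 (orange) and 22Rv1 (green). Filled points have an adjusted p below 0.05; most filled orange points lie to the right of 0, and RAD51B lies to the left in all 3 lines.

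The 6 CPSF1 sh libraries all lay above or all below the 3 CTRL sh libraries for 21 repair genes in LNCaP, 27 in LNCaP95 and 14 in 22Rv1, which is to be read beside 55.6%, 60.0% and 28.2% of all genes tested. These bulk libraries do not tell apart a change in the number of cells in one phase of the cell cycle from a change of mRNA per cell. The 22Rv1 counts rested on single libraries: without CTRL sh replicate 1, 0 repair genes were higher and 5 lower. Without CTRL sh replicate 2 the counts were 2 and 6, and without CTRL sh replicate 3 they were 1 and 6. Calls over all genes fell as well, from 1487 and 1673 to 875 and 1129, 884 and 1091, and 887 and 1114. Without CPSF1 sh2 replicate 1, 2 or 3, 3 repair genes were higher, beside 1217, 1183 and 1197 of all genes. Without CPSF1 sh2 replicate 2, 6 repair genes were lower, beside 1372 of all genes. In separate fits of each hairpin against CTRL sh, 0 repair genes were higher and 4 lower with CPSF1 sh1, and 8 and 17 with CPSF1 sh2. Over all genes these fits gave 849 and 1004 of 11792, and 2955 and 3095 of 11766. In a fit of both hairpins with a shared spread, the repair gene counts were 1 and 7 with CPSF1 sh1 and 5 and 10 with CPSF1 sh2. The hairpins compared directly in that fit differed for 0 of 49 repair genes. With the hairpins pooled and without CPSF1 sh1 replicate 3, the library that stood apart, 6 were higher and 12 lower. All 15 genes called before were among them. In LNCaP, 7 in place of 12 repair genes were higher without CTRL sh replicate 3, beside 3077 in place of 3451 of all genes. In LNCaP95, leaving out any 1 library kept the repair genes between 21 and 27 higher and 5 and 7 lower. With library size alone in place of TMM, 33 repair genes were higher and 4 lower in LNCaP95, where all genes split into 4685 higher and 2850 lower in place of 3694 and 3756 and their median moved to 0.09. RAD50 and RNF168 were then not called in LNCaP95, and ATM, FANCB, FANCI and RAD54L were.

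Across lines, 4 genes were higher in all 3, which were ATRIP, NBN, PRKDC and LIG4, and 1 was lower in all 3, which was RAD51B. The shares of all 10317 genes tested in every line were 3.85% and 4.9%. EXO1 was called in all 3 lines as well, with a change of direction. Calls in opposite directions in at least 2 lines were made for 8 repair genes, against 14.4% of all genes, and 5 were called in no line (CHEK2, FANCM, MRE11A, MUS81 and NHEJ1), against 11.5%. A rise in LNCaP95 with no call in either other line was found for 12 repair genes, against 8.35% of all genes.

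The counts by role that follow are over 2 to 12 genes each, and are descriptions to be read beside the shares of all genes, 33.2% higher and 33.7% lower in LNCaP95, 31.1% and 31.0% in LNCaP, and 12.7% and 14.3% in 22Rv1. Of the 12 strand exchange genes, LNCaP95 had 6 that were higher and 2 that were lower, LNCaP had 2 and 5, and 22Rv1 had 1 and 5. BRCA1 and BRCA2, which act on the resected end, rose in LNCaP95 and fell in 22Rv1. In LNCaP95 cells, BRCA1 stood at 48.1, 52.9 and 53.1 CPM with CTRL sh and 72.1 to 87.7 CPM with CPSF1 sh (median 78.2). In 22Rv1 cells, BRCA1 stood at 198, 199.7 and 199.9 CPM with CTRL sh and 150.5 to 174 CPM with CPSF1 sh (median 161). The groups were apart in both lines, above the controls in LNCaP95 and below them in 22Rv1, whereas in LNCaP they overlapped at 74.2, 81.2 and 82.0 CPM with CTRL sh and 63.8 to 78.9 CPM with CPSF1 sh (median 73.8). The log2 fold change of BRCA1 was 0.61 (SE 0.064, adjusted p = 4.52e-06) in LNCaP95, -0.31 (SE 0.046, adjusted p = 3.71e-04) in 22Rv1 and -0.11 (SE 0.062, adjusted p = 0.132) in LNCaP. BRCA2 in LNCaP95 was at 27.9, 31.1 and 31.1 CPM with CTRL sh and 41.9 to 56.1 CPM with CPSF1 sh (median 45.4), without overlap and with every CPSF1 sh2 library above every CPSF1 sh1 library. Its log2 fold change was 0.63 (SE 0.097, adjusted p = 8.91e-05) in LNCaP95 and 0.07 (SE 0.095, adjusted p = 0.556) in LNCaP. In 22Rv1 the value was -0.25 (SE 0.09, adjusted p = 0.049), and the call was lost without 5 of the 9 libraries, with an adjusted p of up to 0.151 without CTRL sh replicate 2.

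RAD51B, which acts in strand exchange, was the most reduced repair gene in each line. In LNCaP cells RAD51B was at 9.91, 10.2 and 11.2 CPM with CTRL sh and 5.84 to 7.2 CPM with CPSF1 sh (median 6.15). In LNCaP95 cells it was at 12.0, 13.8 and 14.7 CPM with CTRL sh and 5.43 to 10.7 CPM with CPSF1 sh (median 7.69), and in 22Rv1 cells at 6.88, 8.07 and 8.36 CPM with CTRL sh and 4.72 to 7.0 CPM with CPSF1 sh (median 5.15). The groups were apart in LNCaP and LNCaP95, and in 22Rv1 1 CPSF1 sh1 library reached the lowest CTRL sh library. The log2 fold changes were -0.73 (SE 0.10, adjusted p = 2.02e-05), -0.76 (SE 0.16, adjusted p = 0.00115) and -0.48 (SE 0.14, adjusted p = 0.0199) in this order, and the 22Rv1 call was lost without CTRL sh replicate 1 or 3 (adjusted p up to 0.0911). In LNCaP95 the fall was -0.55 with CPSF1 sh1 and -1.06 with CPSF1 sh2, a difference between hairpins of 0.51 (SE 0.14, adjusted p = 0.00838). RAD51B spans 910 kb of chromosome 14, the longest span among these genes, whose median was 64.3 kb in LNCaP against 33.1 kb for all tested genes. This span covers all counted exons up to base 69196935, whereas the canonical transcript end shown above lies at base 68944810. The 11 repair genes that span over 100 kb had median log2 fold changes of -0.08 (LNCaP), 0.16 (LNCaP95) and -0.15 (22Rv1), beside -0.07, 0.23 and -0.07 for the shorter ones. Spearman's rho between span and log2 fold change, given as a description over 48, 48 and 49 genes of the same libraries, was -0.06, 0.08 and -0.27. Over all tested genes rho was -0.04, 0.1 and -0.01. Their medians were -0.035, 0.072 and -0.008 over 100 kb, and 0.008, -0.013 and -0.001 for the shorter ones.

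RAD51C and RAD51D, which act in a complex with RAD51B, rose in LNCaP95. RAD51C rose in LNCaP (0.42, SE 0.059, adjusted p = 2.22e-05) and LNCaP95 (0.43, SE 0.066, adjusted p = 8.79e-05) and had a log2 fold change of 0.08 in 22Rv1 (adjusted p = 0.281). RAD51D was higher in LNCaP95 (0.41, SE 0.096, adjusted p = 0.00202) and fell in LNCaP (-0.22, SE 0.081, adjusted p = 0.0259), the latter call being lost without CTRL sh replicate 2 or 3 (adjusted p up to 0.107). Of the exon bases of RAD51D, 25.2% are shared with a read-through gene, RAD51L3-RFFL, so that its counts are uncertain. BARD1, the partner of BRCA1 in the ubiquitin ligase, fell in LNCaP (-0.33, SE 0.054, adjusted p = 8.97e-05) and rose in 22Rv1 (0.26, SE 0.074, adjusted p = 0.0184), where leaving out CTRL sh replicate 1 or 3 raised the adjusted p to as much as 0.103.

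RAD54L and RAD54B are motor proteins that help the resected strand to invade the template. RAD54L was lower in LNCaP, at 43.7, 46.1 and 47.5 CPM with CTRL sh and 28.6 to 33.9 CPM with CPSF1 sh (median 32.0), and every CPSF1 sh library was below every control. The log2 fold change of RAD54L was -0.54 (SE 0.063, adjusted p = 3.36e-06) in LNCaP and 0.15 (SE 0.062, adjusted p = 0.0524) in LNCaP95 cells, where it passed the threshold without CPSF1 sh2 replicate 1 or 2 (adjusted p = 0.0302 and 0.0410). In 22Rv1 it was -0.16 (SE 0.053, adjusted p = 0.0414), a call that was lost on leaving out any of 7 of the 9 libraries. RAD54B was lower in LNCaP95, at 15.4, 18.5 and 18.7 CPM with CTRL sh and 10.1 to 13.8 CPM with CPSF1 sh (median 12.4), and in 22Rv1, at 22.1, 23.3 and 23.7 CPM with CTRL sh and 15.6 to 18.5 CPM with CPSF1 sh (median 17.3). Neither line showed overlap, with log2 fold changes of -0.51 (SE 0.10, adjusted p = 8.81e-04) and -0.42 (SE 0.074, adjusted p = 0.0011), beside -0.07 (SE 0.11, adjusted p = 0.574) in LNCaP. RAD54B shares 57.7% of its exon bases with FSBP on the same strand. The sources used here do not say how reads on shared bases were counted, so its counts are uncertain. RAD52, which anneals single strands, rose in LNCaP (0.34, SE 0.11, adjusted p = 0.0129), except without CTRL sh replicate 3 (adjusted p = 0.0911).

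Among the damage kinases and checkpoint genes, ATR and its partner ATRIP, which binds the coated single strand and brings the kinase to it, rose together in LNCaP and LNCaP95. ATRIP was at 20.0, 20.2 and 20.8 CPM with CTRL sh and 24.3 to 29.2 CPM with CPSF1 sh (median 26.6) in LNCaP. In LNCaP95 it was at 15.1, 15.7 and 16.4 CPM with CTRL sh and 19.1 to 24.3 CPM with CPSF1 sh (median 22.4), and in 22Rv1 at 28.8, 29.3 and 30.8 CPM with CTRL sh and 31.8 to 42.6 CPM with CPSF1 sh (median 35.9). All 6 CPSF1 sh libraries were above the controls in each line, and the log2 fold changes of ATRIP were 0.39 (SE 0.072, adjusted p = 2.50e-04), 0.47 (SE 0.086, adjusted p = 3.87e-04) and 0.29 (SE 0.082, adjusted p = 0.0159). In 22Rv1 the call was lost without CTRL sh replicate 1 or 3 (adjusted p up to 0.074), and 8.41% of the exon bases of ATRIP lie in TREX1 as well. ATR rose in LNCaP (0.27, SE 0.047, adjusted p = 1.35e-04) and LNCaP95 (0.39, SE 0.07, adjusted p = 3.16e-04) and was at -0.02 (SE 0.088, adjusted p = 0.895) in 22Rv1.

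ATM, the kinase recruited to unresected breaks, fell in LNCaP (-0.31, SE 0.059, adjusted p = 3.18e-04) and in 22Rv1 (-0.32, SE 0.11, adjusted p = 0.0425), and was at 0.16 (SE 0.093, adjusted p = 0.14) in LNCaP95, where it passed the threshold without CTRL sh replicate 2 (log2 fold change 0.26, adjusted p = 0.0430). The 22Rv1 call of ATM was lost without each of 5 of 9 libraries, among them all 3 CTRL sh libraries (adjusted p up to 0.131). CHEK1, the kinase downstream of ATR, fell in 22Rv1 (-0.40, SE 0.057, adjusted p = 2.49e-04), which held without any 1 library. Its fall in LNCaP (-0.24, SE 0.075, adjusted p = 0.0132) was lost without CTRL sh replicate 3 (adjusted p = 0.106), and the value in LNCaP95 was 0.03 (SE 0.073, adjusted p = 0.692).

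Of the 11 Fanconi anaemia genes, 7 were higher in LNCaP95 (63.6%, beside 33.2% of all genes). In LNCaP 3 were lower (27.3%, beside 31.0%) and in 22Rv1 2 (18.2%, beside 14.3%). FANCL, the ubiquitin ligase that modifies FANCD2 and FANCI, stood at 11.8, 13.7 and 14.8 CPM with CTRL sh and 19.5 to 23.8 CPM with CPSF1 sh (median 22.7) in LNCaP95, without overlap. Its log2 fold change was 0.73 (SE 0.095, adjusted p = 2.40e-05) there, 0.03 (SE 0.13, adjusted p = 0.836) in LNCaP and 0.04 (SE 0.066, adjusted p = 0.729) in 22Rv1. FANCE, a member of the core complex, was at 6.8, 7.46 and 7.94 CPM with CTRL sh and 7.71 to 12.2 CPM with CPSF1 sh (median 10.7) in LNCaP95, and 1 CPSF1 sh2 library lay within the control range. The log2 fold change of FANCE was 0.52 (SE 0.14, adjusted p = 0.0068) there.

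FANCC, a further core complex gene, rose in LNCaP95 (0.43, SE 0.066, adjusted p = 1.05e-04) and fell in 22Rv1 (-0.19, SE 0.059, adjusted p = 0.027), the fall being lost without each of 4 of 9 libraries (adjusted p up to 0.119, without CTRL sh replicate 1). FANCI, which is clamped onto the crosslink together with FANCD2, fell in LNCaP (-0.23, SE 0.057, adjusted p = 0.00221) and 22Rv1 (-0.21, SE 0.049, adjusted p = 0.00547), and neither call was lost without any 1 library. FANCB, which is needed for the ligase module, fell in LNCaP (-0.40, SE 0.14, adjusted p = 0.0251), where leaving out CTRL sh replicate 1 or 2 raised the adjusted p to as much as 0.109.

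The RecQ helicases, which unwind joint DNA molecules, were called in opposite directions in LNCaP. BLM rose in LNCaP, at 14.9, 15.7 and 16.0 CPM with CTRL sh and 17.4 to 23.9 CPM with CPSF1 sh (median 20.1), and in LNCaP95, at 22.9, 23.6 and 24.1 CPM with CTRL sh and 34.6 to 44.5 CPM with CPSF1 sh (median 38.6). The groups were apart in both lines, with log2 fold changes of 0.40 (SE 0.099, adjusted p = 0.00266) and 0.73 (SE 0.087, adjusted p = 1.37e-05). In 22Rv1 the log2 fold change was -0.01 (SE 0.055, adjusted p = 0.87). WRN fell in LNCaP (-0.46, SE 0.07, adjusted p = 4.11e-05) and was at -0.04 (SE 0.10, adjusted p = 0.741) in LNCaP95 and -0.15 (SE 0.071, adjusted p = 0.126) in 22Rv1 cells.

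Of the 6 end resection genes, 4 were higher and 1 lower in LNCaP95, with a median log2 fold change of 0.50. In LNCaP 1 was higher and 2 were lower, and in 22Rv1 1 and 1. RBBP8, also known as CtIP, starts resection together with the MRE11A, RAD50 and NBN complex, and had the largest rise among the repair genes of LNCaP95. It was at 66.2, 72.1 and 74.6 CPM with CTRL sh and 108 to 131 CPM with CPSF1 sh (median 125) in that line, and all 6 CPSF1 sh libraries were above the controls. The log2 fold change of RBBP8 was 0.78 (SE 0.067, adjusted p = 9.75e-07) in LNCaP95, 0.04 (SE 0.073, adjusted p = 0.672) in LNCaP and -0.09 (SE 0.045, adjusted p = 0.137) in 22Rv1.

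EXO1, the nuclease that lengthens the resected strand, moved in opposite directions. In LNCaP cells EXO1 was at 30.4, 32.2 and 33.3 CPM with CTRL sh and 21.1 to 28.8 CPM with CPSF1 sh (median 24.2). In LNCaP95 cells EXO1 was at 28.5, 28.8 and 31.1 CPM with CTRL sh and 43.6 to 56.8 CPM with CPSF1 sh (median 49.6), and in 22Rv1 cells at 75.9, 78.4 and 83.7 CPM with CTRL sh and 62.2 to 68.6 CPM with CPSF1 sh (median 63.2). No CPSF1 sh library overlapped the controls in any line, being lower in LNCaP and 22Rv1 and higher in LNCaP95. The log2 fold changes were -0.36 (SE 0.085, adjusted p = 0.00201), 0.77 (SE 0.093, adjusted p = 1.42e-05) and -0.30 (SE 0.052, adjusted p = 8.70e-04), and none of these calls was lost without any 1 library.

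NBN, which links the resection complex to ATM, was higher in all 3 lines. It was at 71.4, 79.6 and 87.7 CPM with CTRL sh and 83.0 to 91.9 CPM with CPSF1 sh (median 89.2) in LNCaP, at 36.7, 37.1 and 37.3 CPM with CTRL sh and 43.5 to 58.8 CPM with CPSF1 sh (median 54.4) in LNCaP95 and at 80.7, 87 and 89.0 CPM with CTRL sh and 85.4 to 105 CPM with CPSF1 sh (median 102) in 22Rv1. The groups were apart in LNCaP95 and overlapped in LNCaP and 22Rv1. The log2 fold change of NBN was 0.51 (SE 0.09, adjusted p = 2.64e-04) in LNCaP95, beside 0.15 (SE 0.058, adjusted p = 0.0332) in LNCaP and 0.21 (SE 0.066, adjusted p = 0.032) in 22Rv1, and each of the latter calls was lost without 6 of 9 libraries (adjusted p up to 0.255 without CTRL sh replicate 3 in LNCaP and 0.168 without CTRL sh replicate 1 in 22Rv1). RAD50, the structural subunit of the complex, fell in LNCaP (-0.20, SE 0.042, adjusted p = 6.80e-04) and LNCaP95 (-0.16, SE 0.063, adjusted p = 0.0372), the second call being lost with library size alone in place of TMM (-0.07, adjusted p = 0.323) and without 7 of 9 libraries (adjusted p up to 0.123, without CTRL sh replicate 2).

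Of the 4 genes of chromatin signalling beside the break, LNCaP had 2 that were higher and 2 that were lower and LNCaP95 1 that was lower, and in 22Rv1 log2 fold changes lay between -0.09 and 0.06 with an adjusted p of at least 0.198. RNF168, the ligase that marks histone H2A at breaks, fell in LNCaP95 (-0.22, SE 0.059, adjusted p = 0.00495) but not with library size alone in place of TMM (adjusted p = 0.0621). In LNCaP its value was 0.15 (SE 0.061, adjusted p = 0.0455), a call lost without 6 of 9 libraries (adjusted p up to 0.142, without CTRL sh replicate 2).

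Of the 4 junction resolution genes, 2 were lower and 1 higher in LNCaP95, 1 was higher in LNCaP, and in 22Rv1 log2 fold changes lay between -0.16 and -0.05 with an adjusted p of at least 0.0633. SLX4 is the scaffold that holds the nucleases which cut crossed strands. In LNCaP95 SLX4 was at 40.5, 41.2 and 44.5 CPM with CTRL sh and 26.3 to 30.1 CPM with CPSF1 sh (median 27.7), without overlap, and in LNCaP at 27.4, 29.0 and 31.5 CPM with CTRL sh and 31.4 to 36.9 CPM with CPSF1 sh (median 34.5), with overlap. Its log2 fold change was -0.59 (SE 0.064, adjusted p = 6.01e-06) in LNCaP95, 0.24 (SE 0.068, adjusted p = 0.00727) in LNCaP (adjusted p = 0.0522 without CTRL sh replicate 3) and -0.08 (SE 0.073, adjusted p = 0.471) in 22Rv1. EME1, a partner of the nuclease MUS81, fell in LNCaP95 (-0.45, SE 0.086, adjusted p = 4.83e-04).

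In end joining, PRKDC and LIG4 rose in every line, whereas XRCC4 was called only in LNCaP. There XRCC4 had a log2 fold change of 0.33 (SE 0.14, adjusted p = 0.0461), a call lost with a more lenient expression filter (adjusted p = 0.0628). Its value was 0.16 (SE 0.10, adjusted p = 0.17) in LNCaP95 and -0.03 (SE 0.11, adjusted p = 0.863) in 22Rv1. By role, all 3 tested genes were thus higher in LNCaP. LNCaP95 had 2 higher among 3 tested, 22Rv1 had 2 among 4, and 0 were lower. PRKDC encodes the catalytic subunit of DNA-dependent protein kinase and was the most abundant repair gene per kb of exon. In LNCaP cells PRKDC was at 599.9, 643 and 659 CPM with CTRL sh and 733 to 888 CPM with CPSF1 sh (median 782). In LNCaP95 cells PRKDC was at 424, 437 and 453 CPM with CTRL sh and 633 to 777 CPM with CPSF1 sh (median 694), and in 22Rv1 cells at 747, 794 and 839 CPM with CTRL sh and 719.9 to 1089 CPM with CPSF1 sh (median 1048). The groups were apart in LNCaP and LNCaP95, whereas in 22Rv1 the lowest CPSF1 sh library, of CPSF1 sh1, fell below all controls. The log2 fold changes of PRKDC were 0.33 (SE 0.058, adjusted p = 1.89e-04), 0.67 (SE 0.064, adjusted p = 2.19e-06) and 0.31 (SE 0.10, adjusted p = 0.0338). The last call was lost without 7 of 9 libraries. Leaving out 1 library gave log2 fold changes of 0.27 to 0.39 and an adjusted p of 2.76e-05 to 0.142, the highest without CTRL sh replicate 2. LIG4, the ligase that seals the ends, was at 29.6, 31.5 and 31.6 CPM with CTRL sh and 36.7 to 44.6 CPM with CPSF1 sh (median 37.9) in LNCaP. It was at 23.6, 24.0 and 24.0 CPM with CTRL sh and 36.9 to 43.9 CPM with CPSF1 sh (median 37.9) in LNCaP95 and at 19.6, 20.0 and 21.3 CPM with CTRL sh and 22.5 to 30.6 CPM with CPSF1 sh (median 24.5) in 22Rv1. No library overlapped the controls, with log2 fold changes of 0.35 (SE 0.07, adjusted p = 5.43e-04), 0.72 (SE 0.073, adjusted p = 3.53e-06) and 0.34 (SE 0.099, adjusted p = 0.0219). The 22Rv1 call of LIG4 was lost without CTRL sh replicate 1 or 2 (adjusted p up to 0.0906). NHEJ1, tested only in 22Rv1, had a log2 fold change of -0.30 (SE 0.12, adjusted p = 0.0908), and with a more lenient expression filter 0.24 in LNCaP and 0.08 in LNCaP95, neither called; 42.1% of its exon bases lie in SLC23A3 as well.

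The knockdown effect itself was compared between lines in a fit of all 27 libraries, in which 48 repair genes were tested and the libraries of each line, controls included, enter 2 of the 3 comparisons. Between LNCaP95 and LNCaP it differed for 36 genes, of which 31 were higher and 5 lower in LNCaP95, against 59.7% of all genes (31.2% higher and 28.5% lower). Between 22Rv1 and LNCaP it differed for 17 genes, 8 higher and 9 lower in 22Rv1, against 50.3% (25.3% and 25.0%). Between 22Rv1 and LNCaP95 it differed for 32, 4 higher and 28 lower in 22Rv1, against 61.6% (30.8% and 30.9%). The effect in LNCaP95 was above that of both other lines for 25 repair genes, against 19.5% of all genes, and below both for 3, EME1, RNF168 and SLX4, against 18.8%. The log2 fold change of CPSF1 itself also differed by line, at -0.65 in LNCaP, -0.89 in LNCaP95 and -0.50 in 22Rv1. LNCaP95 further differed in puromycin dose and culture medium, which cannot be told apart from the line. The part of the CPSF1 level in these differences between lines was not tested.

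EXO1 had the largest such difference in this list, 1.16 (SE 0.081, adjusted p = 2.60e-13) between LNCaP95 and LNCaP and -1.07 (SE 0.072, adjusted p = 1.04e-13) between 22Rv1 and LNCaP95 on the log2 scale. For BRCA1 the difference between 22Rv1 and LNCaP95 was -0.93 (SE 0.071, adjusted p = 2.34e-12) and for RBBP8 -0.88 (SE 0.071, adjusted p = 5.57e-12). For SLX4 it went the other way, with -0.81 (SE 0.088, adjusted p = 3.70e-09) between LNCaP95 and LNCaP. The effects on PRKDC and LIG4 in 22Rv1 and LNCaP had differences of -0.00 (SE 0.086, adjusted p = 0.98) and 0.00 (SE 0.095, adjusted p = 0.982). Of the 12 genes called higher in LNCaP95 and in neither other line, 11 had an effect above both other lines by this test, among them FANCL with a difference from LNCaP of 0.72 (SE 0.15, adjusted p = 1.55e-04). XRCC2, which acts in a complex with RAD51D, was the exception. The 12 genes were picked by their calls in these same libraries, which favours such an outcome, so the 11 are not separate evidence.

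The hairpins were compared directly in fits with 3 groups. In LNCaP 11 of 48 repair genes differed, each lower with CPSF1 sh1 than with CPSF1 sh2, against 8.24% of all genes that were higher and 6.53% that were lower with CPSF1 sh1. In LNCaP95 4 were higher and 9 lower with CPSF1 sh1, against 17.7% and 16.5%, and 8 differed in place of 13 without CPSF1 sh1 replicate 1 or 2 or without CPSF1 sh2 replicate 3. In 22Rv1 cells edgeR and DESeq2 called 0 of 49, against 11.3% of all genes, with 11 at an unadjusted p below 0.05. Without CPSF1 sh1 replicate 1, 8 differed there, without CPSF1 sh1 replicate 3, 6, and without CPSF1 sh2 replicate 2, 1. For PRKDC the difference, CPSF1 sh1 minus CPSF1 sh2, was -0.18 (SE 0.04, adjusted p = 0.00351) in LNCaP and -0.18 (SE 0.042, adjusted p = 0.00274) in LNCaP95, while both hairpins raised it in these lines (0.23 with CPSF1 sh1 and 0.41 with CPSF1 sh2 in LNCaP). For CPSF1 itself this difference was 0.14 (SE 0.053, adjusted p = 0.0773) in LNCaP and -0.00 (SE 0.084, adjusted p = 0.998) in LNCaP95.

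Without knockdown, the lines already differed in these genes. Per kb of exon, PRKDC was the highest in each line, with 47.5 ± 2.26, 32.3 ± 1.16 and 59.4 ± 3.51 CPM per kb in LNCaP, LNCaP95 and 22Rv1 (SD, n = 3). FANCI came next in LNCaP and 22Rv1, at 29.7 ± 0.847 and 44.2 ± 0.682 CPM per kb, and EME1 in LNCaP95, at 29.6 ± 1.37, which did not differ from FANCI there (28.8 ± 0.898) beyond their spread. BARD1 in LNCaP (28.9 ± 0.504) and MDC1 in 22Rv1 (43.5 ± 1.72) lay equally within the spread of FANCI. The lowest were NHEJ1, at 0.943 ± 0.301 and 0.548 ± 0.054 in LNCaP and LNCaP95, and RAD51B, at 1.14 ± 0.115 in 22Rv1. These values use the full exon length, of which 42.1% is shared with SLC23A3 for NHEJ1, so its level is uncertain. In 22Rv1 the CTRL sh level was higher than in LNCaP for 34 of 48 repair genes and lower for 7, against 41.1% and 41.4% of all genes, and higher than in LNCaP95 for 33 and lower for 9, against 42.2% and 42.1%. In LNCaP95 it was higher than in LNCaP for 16 and lower for 21, against 41.0% and 39.3%. BRCA1 in CTRL sh cells was higher in 22Rv1 than in LNCaP95 by 1.98 (SE 0.059, adjusted p = 3.87e-24), and BARD1 was lower in 22Rv1 than in LNCaP, with a log2 difference of -2.11 (SE 0.062, adjusted p = 3.74e-24). FANCL was higher in 22Rv1 than in LNCaP by 2.00 (SE 0.11, adjusted p = 2.14e-17). Line, culture medium and puromycin dose cannot be told apart in these comparisons with LNCaP95.

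**Figure D2:**
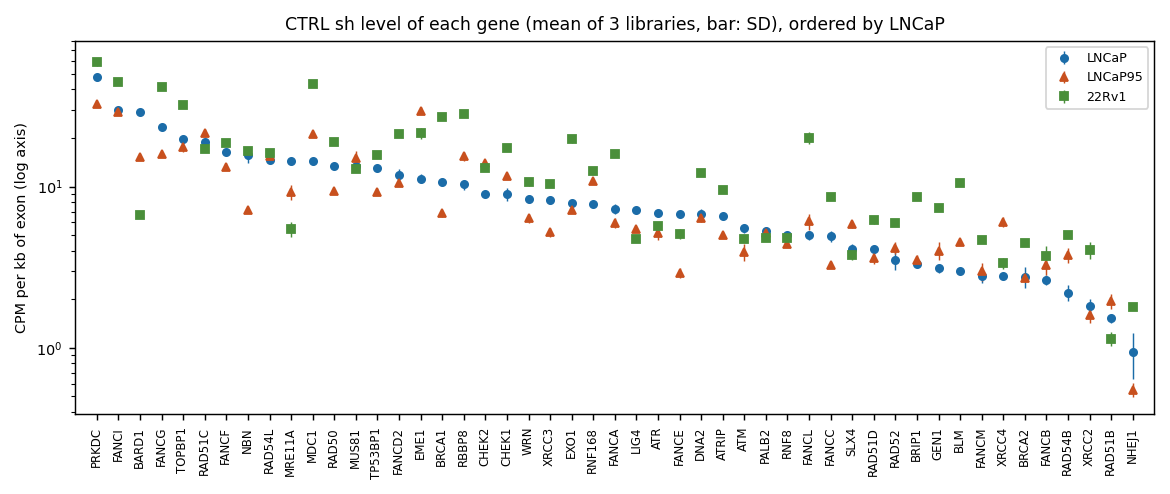
Mean level of each repair gene in 3 CTRL sh libraries per line, in CPM per kb of exon on a log axis with the SD as bars, ordered by the LNCaP level. PRKDC is the highest gene in each line, and the green squares of 22Rv1 lie above the other lines for most genes.

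Lists of other genes are given by the same counts. Among 68 further break repair and checkpoint genes, LNCaP had 21 higher and 7 lower of 67 tested (median 0.04), LNCaP95 28 and 18 of 67 (median 0.10), and 22Rv1 6 and 6 of 68 (median -0.02). As shares these were 31.3% and 10.4%, 41.8% and 26.9%, and 8.82% and 8.82%, beside 31.1% and 31.0%, 33.2% and 33.7%, and 12.7% and 14.3% of all genes. CLSPN, the adaptor between ATR and CHEK1, rose in LNCaP95 (1.94, SE 0.17, adjusted p = 1.45e-06) and LNCaP (0.55, SE 0.085, adjusted p = 5.36e-05). ZRANB3, which remodels stalled forks, rose in LNCaP95 (1.12, SE 0.096, adjusted p = 9.75e-07), and RMI2, a partner of BLM, fell in LNCaP (-0.56, SE 0.11, adjusted p = 5.64e-04) and 22Rv1 (-0.45, SE 0.083, adjusted p = 0.00138).

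In LNCaP95, 17 of 19 genes expressed in S phase were higher and 2 lower (median 0.74), among them CCNE2 (1.39, SE 0.14, adjusted p = 4.27e-06), and 18 of 20 mitosis genes were lower and 0 higher (median -0.41), among them CDC20 (-1.20, SE 0.067, adjusted p = 4.73e-08). LNCaP cells had 8 S phase genes that were higher and 2 that were lower (median 0.12), and 5 and 7 mitosis genes. 22Rv1 cells had 7 S phase genes and 3 mitosis genes that were lower and 0 of either that were higher (S phase median -0.07). Recombination genes are known to be transcribed mainly as cells enter and pass S phase, and the part of the cell cycle genes in the rise of the repair genes in LNCaP95 was not tested.

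Genes that p53 induces after DNA damage were higher in LNCaP (11 of 14, median 0.60) and 22Rv1 (9 of 14, median 0.37), with 0 lower, and in LNCaP95 4 were higher and 5 lower. CDKN1A, the cyclin-dependent kinase inhibitor p21, rose in LNCaP (1.53, SE 0.059, adjusted p = 5.65e-11) and 22Rv1 (1.26, SE 0.15, adjusted p = 8.25e-05), and GADD45A, a damage-induced growth arrest gene, fell in LNCaP95 (-1.25, SE 0.058, adjusted p = 1.23e-08). The other repair routes were spread over both directions. In the order LNCaP, LNCaP95 and 22Rv1, the 7 mismatch repair genes had 1 higher and 3 lower, 3 and 2, and 0 and 2. The 18 nucleotide excision repair genes had 4 and 5, 2 and 6, and 2 and 2, and the 21 base excision repair genes 9 and 6, 10 and 5, and 2 and 4. As shares in LNCaP95, base excision repair had 47.6% higher and 23.8% lower, and mismatch repair 42.9% and 28.6%. Nucleotide excision repair had 11.1% and 33.3% there, and all genes 33.2% and 33.7%. A share of higher genes above that of all genes was thus not confined to break repair in this line. NEIL1, a DNA glycosylase, fell in LNCaP (-1.53, SE 0.10, adjusted p = 1.43e-08).

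E2F factors drive many genes at the start of S phase, and the promoters of the repair genes were searched for the letters TTTCCCGC, TTTGGCGC, TTTGCCGC and TTTCGCGC on both strands, from 250 bases before to 50 after the start in RefSeq (GRCh38.p14). Of the 49 genes, 43 had an entry, and 7 of these (16.3%) held such a run, beside 5.35% of tested genes and 3.33% of all 27305 promoters. All 7 (XRCC2, FANCA, FANCC, FANCD2, EXO1, TOPBP1 and GEN1) were among the 21 with an entry that were higher in LNCaP95, and 0 among the other 22. The split was seen after the calls were known and was not tested. Below, 4 of these runs are shown in capitals within 30 bases on the strand of the gene, to show where they stand: FANCD2 at chr3:10026424-10026453 (plus), EXO1 at chr1:241848197-241848226 (plus), FANCC at chr9:95317863-95317892 (minus) and XRCC2 at chr7:152676102-152676131 (minus).
FANCD2: cgtcgggcctgGCGGGAAAgtcgaaaacta
EXO1: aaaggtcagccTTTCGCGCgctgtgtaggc
FANCC: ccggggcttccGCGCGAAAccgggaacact
XRCC2: tggcgttggtgGCGGGAAAgttgagtctct
The run starts 2 bases before the start of FANCD2 and 172 bases before that of FANCC, and at base 5 and base 22 after the start of EXO1 and XRCC2. CCAAT stood in 18 of the 43 promoters (41.9%, beside 36.8% of tested genes), in 5 of the 21 genes higher in LNCaP95 and 13 of the other 22, and the cell cycle element TTTGAA in 4 (9.3%, beside 9.3%). A match of letters is a description and does not show that a factor binds.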

How the data were processed

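The deposited table holds raw counts per protein-coding gene for 27 libraries. As the labels and the study's methods state, the authors made these counts from paired-end reads of stranded poly(A)-selected mRNA, aligned to hg19 (GRCh37) with HISAT2 2.1.0 and counted on exons by strand with Subread 2.0.3 (submitters' notes), Ensembl annotation. Library sizes ranged from 8515624 to 15904518 counts (median 11058723). Here each line was fitted with edgeR 4.0.16 (R 4.3.3, TMM, legacy quasi-likelihood F-test) on genes above 2 CPM in all 9 libraries, 3 CTRL sh against 6 CPSF1 sh, with Benjamini-Hochberg adjustment over all genes and a threshold of 0.05. The SE is the absolute log2 fold change divided by the root of F. Hairpins were compared in fits of 3 groups, and lines in 1 fit of 27 libraries and 10317 genes. DESeq2 1.42.0 and other settings served as alternatives. The fits of single lines were tested on simulated data. The labels number the libraries of a group as biological replicates, and nothing says how the cultures were separated, so the p-values measure the spread between these libraries. The members and lists were chosen with earlier results of these data known. Named are members called in at least 2 lines, the 5 largest rises and falls per line, those below the filter and, of other lists, up to 2 rises and 2 falls per line. Library by library values are given for up to 15 members, those called in all lines first. FANCE, FANCL, XRCC2 and the promoter set were named by these or by the motif search, which was made after the calls were seen. XRCC4 is given to complete the end joining genes and is not in the counts of lost calls on named genes. A few results are not reported here.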

Additional observations from a re-analysis of the deposited data

Results flagged for a closer look

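These results differed between lines in the test of the knockdown effect itself, over all 27 libraries with edgeR's quasi-likelihood test and Benjamini-Hochberg adjustment. Between LNCaP95 and LNCaP the effect differed for 36 of 48 repair genes (75.0%, beside 59.7% of all genes), between 22Rv1 and LNCaP for 17 (35.4%, beside 50.3%) and between 22Rv1 and LNCaP95 for 32 (66.7%, beside 61.6%). Among genes called in opposite directions, EXO1 had differences of 1.16 (SE 0.081, adjusted p = 2.60e-13) for LNCaP95 minus LNCaP and -1.07 (SE 0.072, adjusted p = 1.04e-13) for 22Rv1 minus LNCaP95. BRCA1 differed by -0.93 (SE 0.071, adjusted p = 2.34e-12), BRCA2 by -0.89 (SE 0.12, adjusted p = 2.50e-07) and FANCC by -0.62 (SE 0.083, adjusted p = 1.39e-07), each for 22Rv1 minus LNCaP95. For LNCaP95 minus LNCaP, SLX4 differed by -0.81 (SE 0.088, adjusted p = 3.70e-09), RAD51D by 0.65 (SE 0.11, adjusted p = 5.71e-06) and RNF168 by -0.35 (SE 0.077, adjusted p = 2.16e-04). For 22Rv1 minus LNCaP, BARD1 differed by 0.61 (SE 0.077, adjusted p = 1.28e-07). The lines also differed in the fall of CPSF1, and LNCaP95 in puromycin dose and culture medium, and the part of these was not tested. No gene was checked for single libraries far from their group, since each group holds 3.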

How the results depend on the processing

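The counts of repair genes higher, lower or different were recomputed with edgeR's newer quasi-likelihood test, DESeq2, RLE size factors, library size alone, another or no expression filter, hairpins as separate groups or alone, a replicate block, and each library left out. No named gene reversed a called direction under any of them. In 22Rv1, CPSF1 sh1 alone gave 0 higher and 4 lower repair genes and CPSF1 sh2 alone 8 and 17. Over all genes these fits gave 849 and 1004, and 2955 and 3095. A fit of both hairpins with a shared spread gave 1 and 7 repair genes for CPSF1 sh1 and 5 and 10 for CPSF1 sh2. Without the expression filter 2 genes differed between hairpins in this line, and the cause was not tested. Leaving out 1 library gave, for higher and lower repair genes, 7 to 12 and 13 to 15 (LNCaP), 21 to 27 and 5 to 7 (LNCaP95), and 0 to 6 and 5 to 12 (22Rv1). All genes of 22Rv1 then ranged from 875 to 2214 higher and 1091 to 2372 lower. Repair genes that differed between hairpins numbered 8 to 12, 8 to 14 and 0 to 8 in the order LNCaP, LNCaP95 and 22Rv1. The interactions gave 35 to 39, 12 to 18 (12 without 22Rv1 CTRL sh replicate 3) and 29 to 33 genes. Of the calls on named genes, 7 of 21 (LNCaP), 1 of 20 (LNCaP95) and 10 of 15 (22Rv1) were lost without at least 1 of the libraries. Apart from the replicate block, single hairpins and left-out libraries, other settings ended calls on RAD50 and RNF168 in LNCaP95 (library size alone), RAD51D and RNF168 in LNCaP and RAD54L in 22Rv1 (DESeq2), RNF168 in LNCaP (library size alone, both other expression filters), NBN in LNCaP (no filter), BRCA2 in 22Rv1 (RLE size factors, library size alone) and RAD54L in 22Rv1 (library size alone). Correlations between the deviations of same-numbered libraries ranged from -0.233 to 0.275, and 7 of 27 were over 0.1. Differently numbered libraries were not correlated for comparison, so these values do not settle whether the numbers pair the libraries. With a replicate block, LNCaP had 9 higher and 15 lower genes, LNCaP95 24 and 5, and 22Rv1 4 and 7, and the hairpins differed for 14, 13 and 1. Depth limits the genes with the lowest counts, such as RAD51B and NHEJ1.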
